A study of Mus musculus with 10 samples.

Results

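The genes described here carry the names of subunits of the mitochondrial respiratory chain and ATP synthase. They were chosen by name among the protein-coding genes, as those whose symbols start with Ndufa, Ndufb, Ndufc, Ndufs or Ndufv (the assembly factors named Ndufaf left out), Uqcr, Cox4 to Cox8 or Atp5, with Sdha to Sdhd and the protein-coding mt- genes. The rule took 98 of the 32506 genes in the count table, 85 encoded in the nucleus and 13 in the mitochondrial genome. The rule reads names and no measured value, although it was set with earlier results of these data known. Of the nuclear members 38 belong by name to complex I, 4 to complex II, 8 to complex III, 18 to complex IV and 17 to complex V. Sequenced was RNA of lumbar spinal cords from 5 female mice that overexpress the G86R mutant of murine superoxide dismutase 1 (SOD1G86R) and from 5 litter-matched females without the transgene (WT), with 1 library per mouse. All mice were of the FVB/N strain and 95 days old, with no treatment apart from ketamine and xylazine and perfusion with phosphate-buffered saline at the end. The model rests on an excess of the mutant enzyme beside the mouse's own Sod1, and at this age its mice show motor symptoms of varied severity.

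Mitochondria make most of a neuron's ATP by passing electrons from NADH (complex I) and succinate (complex II) over ubiquinone to complex III, over cytochrome c to complex IV and finally to oxygen. Complexes I, III and IV pump protons, and complex V, the ATP synthase, uses the gradient to make ATP. Complex II is encoded in the nucleus alone, whereas the others combine nuclear subunits with subunits read from the small circular mitochondrial genome, which is transcribed from both strands as long precursors that are cut into single RNAs. Several complex IV subunits have a form found in most tissues and another typical of heart and skeletal muscle, lung or testis.

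The total count per library was 29333590 to 46003999. Sod1 lay at 127 to 210 CPM in WT mice and at 3918 to 6415 CPM in SOD1G86R mice, where CPM are counts relative to the TMM-scaled size of the library. One library stood apart: SOD1G86R replicate 4 held 639 counts of Scn10a and 461 of Avil, genes of dorsal root ganglion neurons, against at most 3 and 18 counts elsewhere. Defining genes of spinal cord cells were abundant in both groups, with a summed level of 7524 to 10293 CPM for 8 neuronal markers and 33103 to 41694 CPM for 6 oligodendrocyte markers. Genes with too few counts were removed by edgeR's filter, which left 16974 genes, among them 97 members. The member removed, Cox8c, a form of subunit 8 known from testis, had 0 counts in every library.

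No respiratory chain gene passed the test between SOD1G86R and WT mice. At the study's limit on the adjusted p of 0.01, edgeR called 0 of 97 members, against 1.12% of all genes tested (0.866% higher and 0.253% lower), while DESeq2 with a normal prior called 1 member (Ndufab1), against 4.3% of the 19092 genes it gave an adjusted p, and limma voom 0, against 0.348%. The estimates leaned to one side by a small amount. The log2 fold change (SOD1G86R minus WT) was negative for 89 of the 97 members, or 91.8%, against 52.3% of all genes. Its median was -0.11 over the members and -0.0082 over all genes. At an unadjusted p under 0.05, 12 members were lower (12.4%, against 6.33% of all genes) and 1 was higher (1.03%, against 10.8%). All SOD1G86R mice lay below all WT mice for 1 member, or 1.03%, against 1.84% of all genes, and above them for 0 members, against 3.09% of all genes. For 82 members the 95% interval of the log2 fold change stayed within 0.5 of 0, and for 93 within 1 of 0. The members vary together between mice, so the number with a negative sign does not count that many separate observations. In bulk tissue, fewer cells of a type and less RNA per cell cannot be told apart.

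**Figure D1:**
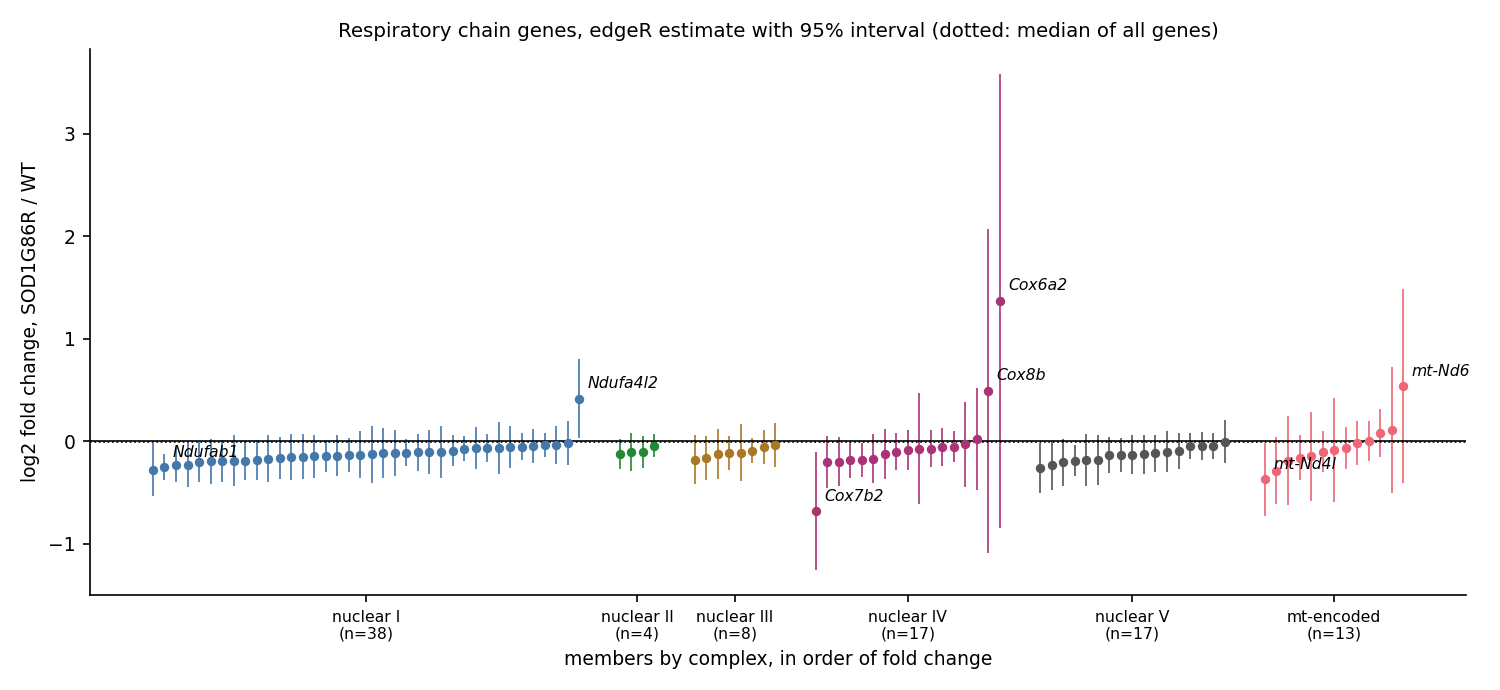
Each point is 1 of the 97 members tested, placed by complex and ordered by its log2 fold change between SOD1G86R and WT mice (vertical axis), with the 95% interval from edgeR as a line. Most nuclear members sit just below 0, with a median of -0.12 over the 84 tested, while the widest intervals belong to Cox6a2, Cox8b and mt-Nd6.

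The lean was alike from complex to complex. The median log2 fold change of the nuclear members was -0.13 for complex I, -0.11 for complex II, -0.11 for complex III, -0.09 for complex IV and -0.13 for complex V. Every member of complexes II (4), III (8) and V (17) had a negative value, as had 37 of 38 in complex I and 14 of 17 in complex IV. Over all 84 nuclear members the median was -0.12, and it was -0.20 without SOD1G86R replicate 3 and -0.07 without SOD1G86R replicate 5. The number of negative members among the 97 stayed between 82 and 92 when any 1 mouse was left out. Nuclear members made up 1.34 to 1.55% of all counts in WT mice and 1.16 to 1.52% in SOD1G86R mice, so that the groups overlapped.

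Single mice decided much of the spread. The mean deviation of the nuclear members from the WT mean, on the log2 scale, was -0.11, 0.16, -0.04, -0.08 and 0.07 in WT replicates 1 to 5. In SOD1G86R replicates 1 to 5 it was -0.16, 0.01, 0.17, -0.19 and -0.36. SOD1G86R replicate 3 thus lay as high as the highest WT mouse, and SOD1G86R replicate 5 lay below every other library. SOD1G86R replicate 5 was the lowest of the 10 libraries for 74 of the 84 nuclear members tested. WT replicate 2 was the highest for 44 of them and SOD1G86R replicate 3 for 35. For 2 other groups, looked at after these values were seen, the same libraries were the highest, and the lowest was the same for one of them. For 77 genes of mitochondrial ribosomal proteins the mean deviation was highest in WT replicate 2 (0.14) and SOD1G86R replicate 3 (0.12) and lowest in SOD1G86R replicate 5 (-0.26). The second group was 95 protein-coding genes with symbols that start like those of cytosolic ribosomal proteins (Rpl or Rps, then a digit or p). Genes of other proteins, such as the S6 kinases, share this start, so the group is not ribosomal proteins alone. Its mean deviation was highest in SOD1G86R replicate 3 (0.29) and WT replicate 2 (0.16). It was -0.15 in SOD1G86R replicate 5 and -0.20 in replicate 4. The median log2 fold change was -0.09 for the mitochondrial ribosome, with 71 of 77 values negative. For the group named like the cytosolic ribosome it was -0.02, with 60 of 95 negative. What the groups share between mice, such as RNA quality, was not tested.

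**Figure D2:**
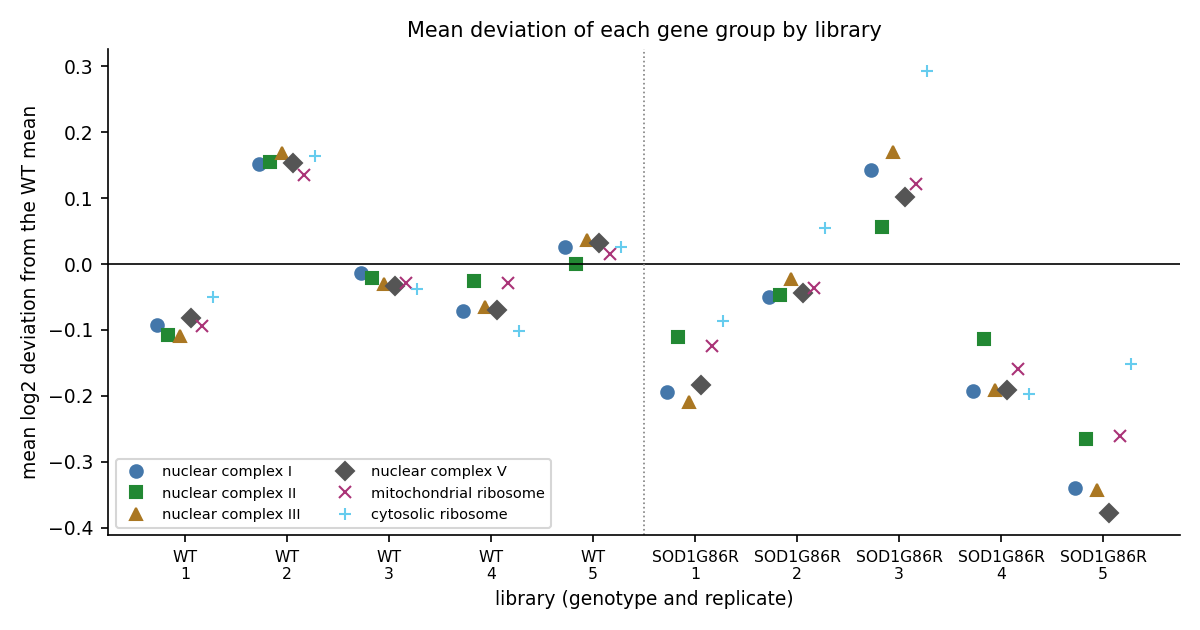
For each library (horizontal axis) the points give mean log2 deviations from the WT mean. They cover the nuclear members of complexes I, II, III and V and both groups with ribosomal names. Complex IV, which holds the muscle forms, is left out. The group labelled cytosolic ribosome also holds genes of other proteins that share its name start. The groups of genes move together from mouse to mouse, with WT replicate 2 and SOD1G86R replicate 3 high and SOD1G86R replicate 5 low.

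Ndufab1 came closest to a call. It encodes the mitochondrial acyl carrier protein, a subunit of complex I that also carries growing acyl chains in mitochondrial fatty acid and lipoic acid synthesis. It lies on the minus strand of chromosome 7 (chr7:122085403-122101886, GRCm38). It was at 68.5, 74.8, 65.2, 65.5 and 68.1 CPM in WT replicates 1 to 5 and at 57.5, 59.2, 62.0, 56.6 and 51.8 CPM in SOD1G86R replicates 1 to 5. All 5 SOD1G86R mice lay below all 5 WT mice, the only member for which the groups did not overlap. Its mean was 68.4 ± 3.84 CPM in WT and 57.4 ± 3.78 CPM in SOD1G86R mice (SD, n = 5 each). Its log2 fold change was -0.25 (SE 0.06, the standard error, 95% interval -0.38 to -0.13), with an edgeR adjusted p of 0.0275, which does not pass 0.01 but passes 0.05. By DESeq2 with a normal prior its adjusted p was 0.00329, and in edgeR fits without 1 mouse it was 0.0284 to 0.0717. Of its annotated exon bases 3.9% are shared with another gene.

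The promoter of this member is shown because it is the one nearest the limit, and that of Atp5g3, a subunit of the ATP synthase treated further on, because it carries matches to 2 motifs linked to respiratory chain genes. Each runs from 250 bases before the start of the RefSeq transcript to 50 after it, on the gene's own strand in GRCm38.p6, Ndufab1 at chr7:122101799-122102098 and Atp5g3 at chr2:73911277-73911576, both minus. Capitals mark the motif matches.
Ndufab1: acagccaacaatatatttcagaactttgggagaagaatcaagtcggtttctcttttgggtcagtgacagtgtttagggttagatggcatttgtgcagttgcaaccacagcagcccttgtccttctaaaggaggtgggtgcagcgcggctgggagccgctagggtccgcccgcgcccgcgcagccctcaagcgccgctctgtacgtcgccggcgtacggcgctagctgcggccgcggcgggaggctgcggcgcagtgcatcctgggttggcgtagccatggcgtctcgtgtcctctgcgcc
Atp5g3: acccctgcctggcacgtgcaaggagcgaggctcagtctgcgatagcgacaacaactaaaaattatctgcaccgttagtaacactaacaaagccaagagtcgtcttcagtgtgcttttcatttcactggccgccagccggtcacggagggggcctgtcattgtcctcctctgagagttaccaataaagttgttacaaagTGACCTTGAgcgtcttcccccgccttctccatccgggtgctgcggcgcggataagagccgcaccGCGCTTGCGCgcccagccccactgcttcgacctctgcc
In Atp5g3 the first match in capitals is the reverse complement of TCAAGGTCA, the element bound by oestrogen-related receptors (ERR), and the second is a match to the palindromic element bound by nuclear respiratory factor 1 (NRF1), searched with any base at the fifth letter of that run. Neither motif, nor CCGGAAG, the core bound by ETS factors such as GABP (nuclear respiratory factor 2), was in the Ndufab1 window. Promoters in RefSeq were found by symbol for 67 of the 85 nuclear members. Searched on both strands, the NRF1 motif was in 16 of the 67 (23.9%) and in 6.6% of 17491 promoters, and the ETS motif in 15 (22.4%) and in 11.9% of all. The ERR motif was in 2 members (2.99%), Atp5g3 and Sdhd, and in 0.332% of all promoters. Matches to several motifs were not particular to Atp5g3. Sdhd held the NRF1, ETS and ERR motifs, and Atp5h, Atp5k and Cox6a1 held the NRF1 and ETS motifs. A match of letters is a description and does not show binding.

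Among the other nuclear members of complex I the log2 fold changes ran from -0.28 (Ndufs5, an accessory subunit) to 0.41 (Ndufa4l2). Ndufb10, an accessory subunit of the membrane arm, was at 124, 149, 127, 119 and 121 CPM in WT replicates 1 to 5 and at 109, 113, 122, 105 and 94.9 CPM in SOD1G86R replicates 1 to 5. SOD1G86R replicate 3 reached into the WT range. The log2 fold change was -0.23 (SE 0.08, adjusted p 0.117 by edgeR). Ndufs5, Ndufc1, Ndufb8 and Ndufb2, all accessory subunits, had unadjusted p between 0.0365 and 0.0492, log2 fold changes of -0.28, -0.23, -0.20 and -0.19, and adjusted p of 0.251 to 0.29 by edgeR. Per kilobase of transcript the highest nuclear member named for complex I was Ndufa4, at 484 CPM per kb, although its protein is now counted to complex IV. Ndufa4 had 313 ± 28.1 CPM in WT and 278 ± 48.1 CPM in SOD1G86R mice (SD, n = 5 each), and the groups overlapped.

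Ndufa4l2, a relative of Ndufa4 known to be induced by low oxygen, was the only nuclear complex I member with a positive value. It was at 1.40, 1.30, 2.06, 2.26 and 2.17 CPM in WT replicates 1 to 5 and at 2.11, 2.22, 2.87, 2.33 and 2.76 CPM in SOD1G86R replicates 1 to 5. The lowest SOD1G86R mouse lay below the 2 highest WT mice. The log2 fold change was 0.41 (SE 0.18, adjusted p 0.250 by edgeR). The 7 markers of pericytes and other mural cells, in which this gene is known to be expressed, all had positive values with a median log2 fold change of 0.29, of which none passed 0.01 by edgeR and 1 (Notch3, higher) by DESeq2. Their summed level was 165 to 312 CPM in WT and 237 to 301 CPM in SOD1G86R mice. Its part in the value of Ndufa4l2 was not tested.

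Complex II has 4 subunits, the flavoprotein Sdha, the iron-sulphur protein Sdhb and the membrane anchors Sdhc and Sdhd. Sdha, which oxidises succinate, was at 586, 657, 610, 608 and 613 CPM in WT replicates 1 to 5 and at 587, 608, 619, 622 and 548 CPM in SOD1G86R replicates 1 to 5. The 2 groups overlapped almost fully, and the log2 fold change was -0.04 (95% interval -0.16 to 0.07, edgeR adjusted p 0.730). Sdhb was at 162 ± 12.04 CPM in WT and 151 ± 14.02 CPM in SOD1G86R mice (SD, n = 5 each). Sdhc was at 121 ± 10.6 and 111 ± 7.93 CPM, and Sdhd at 126 ± 10.5 and 117 ± 14.9 CPM (SD, n = 5 each). Their log2 fold changes were -0.11, -0.12 and -0.11, with edgeR adjusted p between 0.387 and 0.565.

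In complex III the values were similar. Uqcrh, the hinge protein that helps cytochrome c dock, was the highest nuclear member of the complex per kilobase (386 CPM per kb). It was at 203, 251, 216, 210 and 242 CPM in WT replicates 1 to 5 and at 175, 214, 251, 189 and 160 CPM in SOD1G86R replicates 1 to 5. SOD1G86R replicate 3 matched the highest WT mouse, and the log2 fold change was -0.18 (SE 0.11, adjusted p 0.437 by edgeR). Uqcrb, which takes part in ubiquinone binding, was at 55.3 ± 3.88 CPM in WT and 49.4 ± 8.13 CPM in SOD1G86R mice (SD, n = 5 each), with a log2 fold change of -0.16 and an edgeR adjusted p of 0.427. The other 6 had log2 fold changes that reached up to -0.04 (Uqcrq).

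Complex IV, the cytochrome c oxidase, holds the forms that differ between tissues. Cox4i1, the common form of subunit 4 and the highest nuclear member of the complex per kilobase (694 CPM per kb), was at 565, 656, 549, 516 and 537 CPM in WT replicates 1 to 5 and at 481, 511, 578, 480 and 438 CPM in SOD1G86R replicates 1 to 5. Again SOD1G86R replicate 3 lay within the WT range, and the log2 fold change was -0.18 (SE 0.08, adjusted p 0.270 by edgeR). Cox4i2, the form of lung, had a far lower level of 2.84 CPM per kb, with 2.07 ± 0.269 CPM in WT and 2.10 ± 0.750 CPM in SOD1G86R mice (SD, n = 5 each). Cox5a, which has no tissue form, was at 220 ± 18.4 CPM in WT and 195 ± 19.9 CPM in SOD1G86R mice (SD, n = 5 each), a log2 fold change of -0.18 with an edgeR adjusted p of 0.246.

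The common forms of the other subunits stood well above their tissue forms. Per kilobase of transcript, mean levels in WT mice were 499 CPM per kb for Cox6a1 against 2.85 for Cox6a2, 432 for Cox6b1 against 4.44 for Cox6b2, 207 for Cox7b against 1.26 for Cox7b2, and 471 for Cox8a against 4.55 for Cox8b. Of the 3 genes of the Cox7a family, Cox7a2 had 282 CPM per kb, Cox7a2l, which acts in supercomplex assembly, 158 CPM per kb, and the muscle form Cox7a1 14.3 CPM per kb. The log2 fold changes of the common forms were -0.07 (Cox6a1), -0.09 (Cox6b1), -0.17 (Cox7a2), -0.06 (Cox7a2l), -0.20 (Cox7b) and -0.10 (Cox8a), with edgeR adjusted p of at least 0.388. Cox6b2, known from testis, had a log2 fold change of -0.03. Cox7b2 had the lowest value of all members, a log2 fold change of -0.68 (SE 0.27, adjusted p 0.206 by edgeR). It was at 0.648, 0.635, 0.729, 0.589 and 0.802 CPM in WT replicates 1 to 5 and at 0.221, 0.337, 0.552, 0.681 and 0.346 CPM in SOD1G86R replicates 1 to 5, so that replicate 4 alone reached into the WT range, at counts of 7 to 37 per library.

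The muscle forms Cox6a2 and Cox8b had the highest fold changes of complex IV and the widest intervals. Cox6a2 was at 0.205, 2.83, 0.304, 0.403 and 5.94 CPM in WT replicates 1 to 5 and at 3.85, 11.3, 7.48, 1.62 and 1.60 CPM in SOD1G86R replicates 1 to 5. WT replicates 2 and 5 lay among the SOD1G86R mice, and the log2 fold change was 1.37 with a 95% interval of -0.84 to 3.58 (edgeR adjusted p 0.526). Cox8b was at 1.02, 1.65, 0.759, 0.899 and 3.86 CPM in WT and at 2.11, 5.28, 3.01, 1.04 and 0.319 CPM in SOD1G86R replicates 1 to 5. Its log2 fold change was 0.49 (95% interval -1.09 to 2.07, edgeR adjusted p 0.775), and it turned to -0.04 at the lowest when single mice were left out. The summed level of 7 skeletal muscle markers was 22.7, 124, 8.87, 5.52 and 248 CPM in WT replicates 1 to 5 and 454, 876, 291, 108 and 13.5 CPM in SOD1G86R replicates 1 to 5. The 4 libraries with the most muscle marker RNA were also the 4 highest for Cox6a2 and Cox8b. All 7 markers had positive values, with a median log2 fold change of 2.01 and none past 0.01 by edgeR or DESeq2. Cox7a1 spread less, with 5.64 ± 1.56 CPM in WT and 5.36 ± 1.81 CPM in SOD1G86R mice (SD, n = 5 each). Whether muscle RNA makes up the signal of these forms was not tested.

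**Figure D3:**
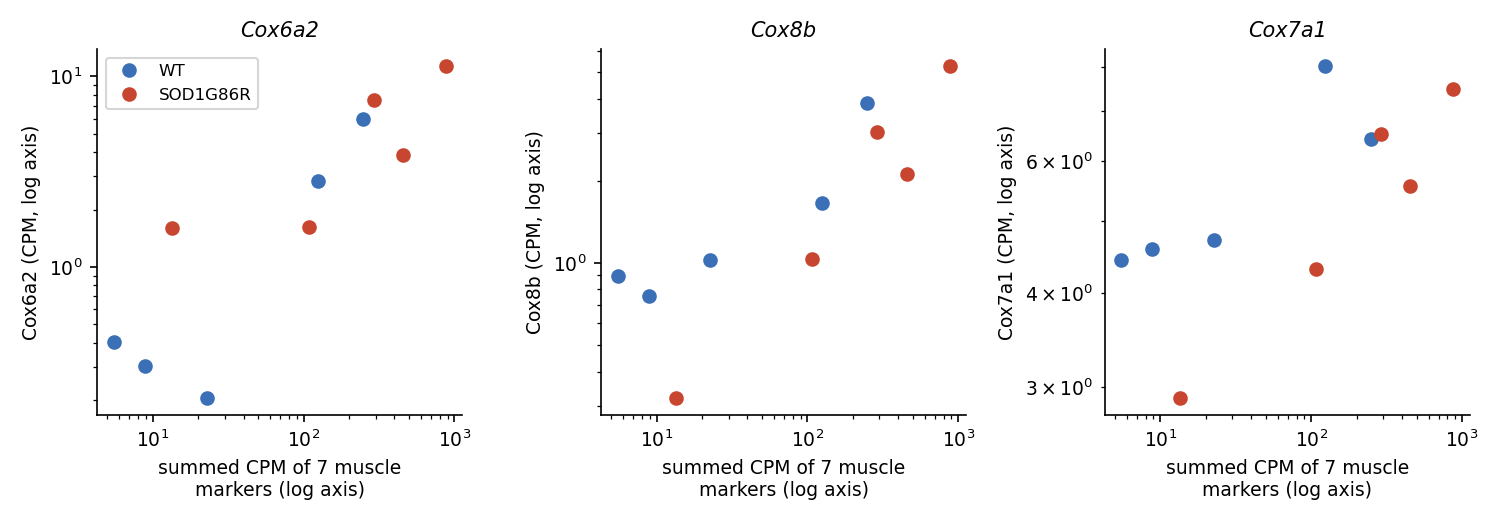
Each point is 1 library, with the summed CPM of 7 skeletal muscle markers on the horizontal axis and the CPM of Cox6a2, Cox8b or Cox7a1 on the vertical axis (both log axes). The levels of Cox6a2 and Cox8b are highest in the library with the most muscle marker RNA, SOD1G86R replicate 2, at 11.3 and 5.28 CPM. SOD1G86R replicates 2, 1 and 3 hold the most muscle marker RNA (876, 454 and 291 CPM). WT replicates 4 and 3 hold the least (5.52 and 8.87 CPM), and between these ends WT and SOD1G86R libraries mix.

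In complex V all 17 nuclear members had values below 0, from -0.27 (Atp5k) to -0.0050 (Atp5g2). Atp5g3, one of the 3 genes for subunit c of the rotor ring, was at 292, 353, 307, 294 and 304 CPM in WT replicates 1 to 5 and at 266, 271, 304, 275 and 244 CPM in SOD1G86R replicates 1 to 5. SOD1G86R replicate 3 lay within the WT range, so that the groups overlapped. The mean was 310.0 ± 24.9 CPM in WT and 272 ± 21.7 CPM in SOD1G86R mice (SD, n = 5 each), a log2 fold change of -0.19 (SE 0.07, adjusted p 0.160 by edgeR). Atp5k, subunit e of the membrane part, was at 97.5, 117, 100.2, 92.3 and 103 CPM in WT and at 86.04, 93.6, 101, 81.3 and 61.8 CPM in SOD1G86R replicates 1 to 5, with a log2 fold change of -0.27 (SE 0.11, adjusted p 0.246 by edgeR). Atp5b, the catalytic beta subunit and the highest nuclear member of all per kilobase (798 CPM per kb), was at 1557 ± 77.2 CPM in WT and 1503 ± 96.3 CPM in SOD1G86R mice (SD, n = 5 each). Its log2 fold change of -0.05 had a 95% interval of -0.18 to 0.08 (edgeR adjusted p 0.717). The 10 genes with these name starts that are pseudogenes or other non-coding genes, left out by the rule, had at most 24 counts in any library. Of the nuclear members 30 share exon bases with another annotated gene, and 3 of them (Atp5o, Ndufa13 and Ndufb6) more than 20%.

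**Figure D4:**
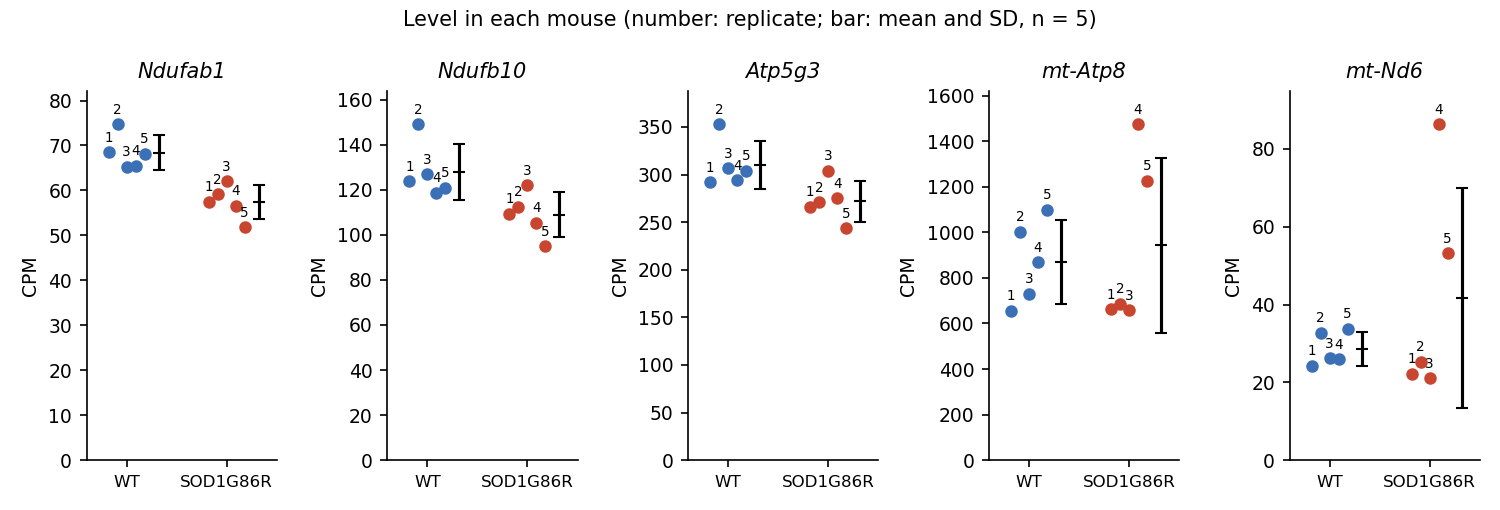
CPM of Ndufab1, Ndufb10, Atp5g3, mt-Atp8 and mt-Nd6 in each mouse (point, with its replicate number), with the mean and SD of 5 mice as a bar and the axis from 0. Ndufab1 separates the groups, from 65.2 CPM up in WT and up to 62.0 CPM in SOD1G86R mice, while mt-Atp8 and mt-Nd6 are high in SOD1G86R replicates 4 and 5.

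The 13 mitochondrial genes encode membrane subunits, 7 of complex I, 1 of complex III, 3 of complex IV and 2 of complex V. Together they made up 4.63 to 5.84% of all counts in WT mice and 4.08 to 5.29% in SOD1G86R mice, and the groups overlapped. None passed the test, 9 of 13 had negative log2 fold changes, and the median was -0.089, which is the value of mt-Co2. Among the negative ones, mt-Nd4l (-0.37), mt-Atp6 (-0.29), mt-Nd3 (-0.19), mt-Co3 (-0.15) and mt-Co2 had only 15 to 809 counts per library. Their levels are uncertain, as described further on. Of the others, mt-Cytb, mt-Nd1, mt-Nd2 and mt-Nd4 were negative, and mt-Co1, mt-Nd5, mt-Atp8 and mt-Nd6 were positive. The median over all 13 was -0.0081 without WT replicate 5, -0.022 without SOD1G86R replicate 1, -0.016 without SOD1G86R replicate 5 and -0.054 without WT replicate 2. mt-Co1, the catalytic subunit of complex IV, was at 12410, 12243, 12336, 12011 and 15154 CPM in WT replicates 1 to 5 and at 11043, 13346, 14663, 13722 and 11578 CPM in SOD1G86R replicates 1 to 5. The ranges of the groups overlapped, with a log2 fold change of 0.0045 (95% interval -0.19 to 0.20, edgeR adjusted p 0.988). mt-Cytb, the core of complex III, was at 11186 ± 1043 CPM in WT and 10671 ± 1396 CPM in SOD1G86R mice (SD, n = 5 each), a log2 fold change of -0.07 with an edgeR adjusted p of 0.761. For mt-Nd1, mt-Nd2, mt-Nd4 and mt-Nd5, subunits of the proton-pumping arm of complex I, the log2 fold changes were -0.16, -0.02, -0.10 and 0.08, with edgeR adjusted p of 0.461 to 0.948.

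The counted level differed widely between neighbouring genes of the mitochondrial genome. Per kilobase of gene, mt-Cytb (9553), mt-Nd1 (9475) and mt-Co1 (8318) had the highest mean CPM per kb. mt-Nd4l was at 41.8, mt-Nd3 at 7.36, mt-Atp6 at 3.71, mt-Co3 at 1.72 and mt-Co2 at 1.003 CPM per kb. These 5 genes have a near-complete copy in the nuclear genome, a row of pseudogenes that GENCODE M21 (GRCm38) places between positions 24612407 and 24615565 of chromosome 1. The copy covers 99.0% of mt-Nd4l, 98.3% of mt-Nd3, 99.6% of mt-Atp6, 99.9% of mt-Co3 and 99.6% of mt-Co2, with 0 mismatches over each aligned stretch. mt-Nd4 is copied in part (63.6% of the gene, 0 mismatches) and had 3383 CPM per kb, and mt-Co1 over 31.3% with 1 mismatch. The 5 fully copied genes had 15 to 809 counts per library and their copies 0 to 50, whereas mt-Nd1 had at least 230328. How the counting treated reads that match 2 places is not given in the sources used here, and its part was not tested. The values of these 5 genes are therefore uncertain as levels, including the log2 fold change of mt-Nd4l, which was -0.37 (SE 0.16, adjusted p 0.272 by edgeR). The levels of mt-Nd4 and mt-Co1 are uncertain for the part of each gene that is copied. Only annotated pseudogenes were compared, so copies without annotation were not looked for.

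**Figure D5:**
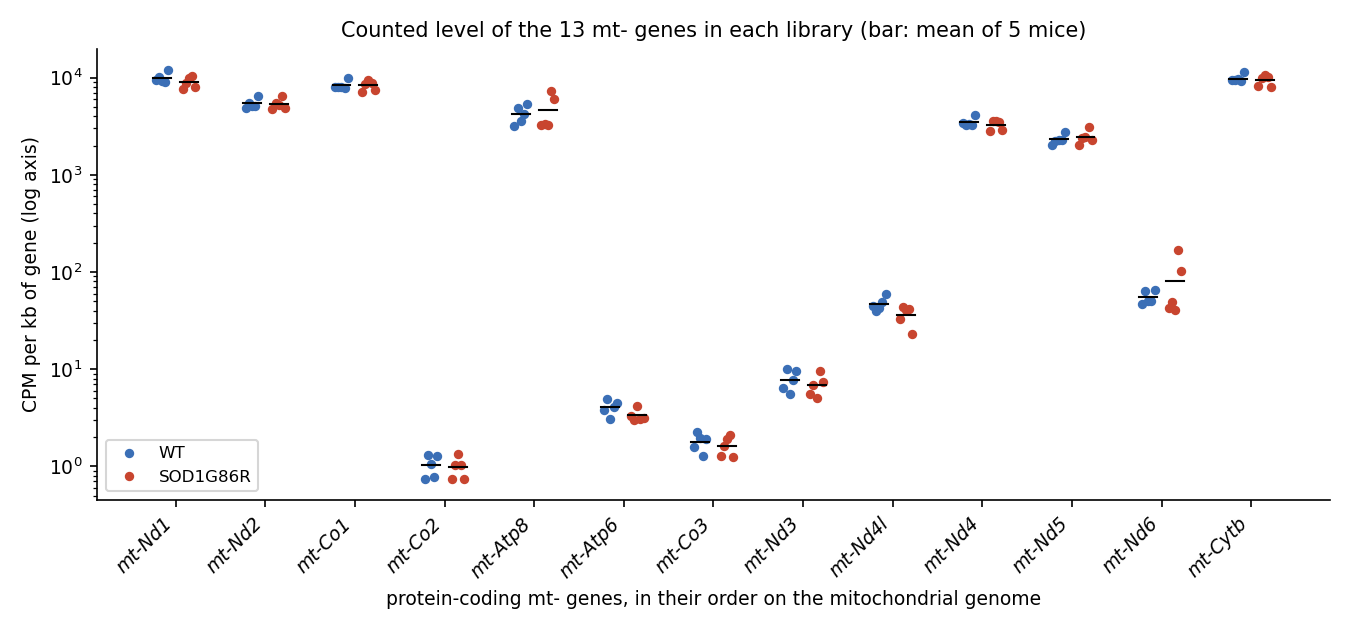
Counted level (CPM per kb of gene, log axis) of the 13 protein-coding mt- genes in their order on the mitochondrial genome, with 1 point per library and a bar at the mean of 5 mice. mt-Co2, mt-Atp6, mt-Co3, mt-Nd3 and mt-Nd4l, which have a near-complete nuclear copy, lie at 1.003 to 41.8 CPM per kb, and the other genes apart from mt-Nd6 at 2384 to 9553 CPM per kb.

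mt-Nd6 and mt-Atp8 differed between SOD1G86R mice. mt-Nd6, a complex I subunit and the only one of the 13 on the minus strand, was at 24.3, 32.8, 26.2, 26.0 and 33.8 CPM in WT replicates 1 to 5 and at 22.3, 25.3, 21.1, 86.4 and 53.2 CPM in SOD1G86R replicates 1 to 5. SOD1G86R replicates 4 and 5 lay above every WT mouse and the other 3 below every WT mouse but replicate 1. mt-Atp8, a small membrane subunit of complex V, showed the same split. It was at 655, 1002, 730, 867 and 1099 CPM in WT and at 663, 686, 659, 1475 and 1227 CPM in SOD1G86R replicates 1 to 5. The log2 fold changes were 0.54 for mt-Nd6 (95% interval -0.40 to 1.48, edgeR adjusted p 0.565) and 0.11 for mt-Atp8 (95% interval -0.50 to 0.73, edgeR adjusted p 0.876). The value of mt-Nd6 was 0.089 at the lowest and that of mt-Atp8 -0.11 at the lowest when single mice were left out. mt-Nd6 shares 14 bases with mt-Nd5 on the other strand and mt-Atp8 shares 43 bases with mt-Atp6. On the mitochondrial genome mt-Atp8 lies between mt-Co2 and mt-Atp6, which both have a nuclear copy. Whether mt-Atp8 has a nuclear copy without annotation was not tested. The strand setting of the counting is not given in the sources used here, so reads of mt-Nd6 cannot be told from reads of the opposite strand.

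Genes that serve the respiratory chain were read from lists chosen with earlier results of these data known. No gene of these lists passed edgeR's test or limma voom's, and DESeq2 called 1 (Hk2, a glycolytic gene, higher). At an unadjusted p under 0.05 edgeR placed 4 of 39 assembly factors (10.3%), 3 of 14 electron carrier genes (21.4%), 1 of 16 genes of the tricarboxylic acid cycle (6.25%) and 1 of 17 glycolytic genes (5.88%) lower, against 6.33% of all genes. It placed 1 glycolytic gene higher (5.88%, against 10.8% of all genes). Of 39 assembly factors of the complexes, 32 had negative log2 fold changes, with a median of -0.08, and of 14 genes of ubiquinone synthesis, cytochrome c and other electron carriers 12 were negative, with a median of -0.09. Of 15 genes of mitochondrial DNA upkeep and expression 12 were negative (median -0.09), and of 16 genes of the tricarboxylic acid cycle 12 (median -0.06). The 10 regulators of mitochondrial biogenesis, such as Ppargc1a, were all positive with a median of 0.07. Ppargc1a had 54.7 ± 3.53 CPM in WT and 59.7 ± 7.76 CPM in SOD1G86R mice (SD, n = 5 each). Of 17 glycolytic genes 11 were positive and the median was 0.03.

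Markers of other cells moved beside these values. The 9 microglial markers were all positive, with a median log2 fold change of 0.96 and 1 past 0.01 by edgeR (Cx3cr1), and their summed level was 317 to 417 CPM in WT and 436 to 1043 CPM in SOD1G86R mice. Of 6 astrocyte markers 5 were positive (median 0.20), of 8 neuronal markers 7 were negative (median -0.08), of 6 motor neuron markers 4 were negative (median -0.07), and all 6 oligodendrocyte markers were negative (median -0.11). The 5 endothelial markers were all positive (median 0.25) and the 5 erythroid markers all negative (median -0.80), and of 4 Schwann cell markers tested 3 were positive (median 0.12). By edgeR none of these markers apart from Cx3cr1 and the Schwann cell marker Egr2 (adjusted p 0.00583) passed 0.01. DESeq2 with a normal prior called 8 of the microglial markers, Egr2 and the astrocyte markers Aqp4 and Gfap, all higher. In SOD1G86R replicates 1 to 5 the summed level of microglial markers was 1043, 745, 926, 436 and 984 CPM. The mean deviation of the nuclear members in the same libraries was -0.16, 0.01, 0.17, -0.19 and -0.36. Replicate 4 is also the library that stood apart by its counts of Scn10a and Avil. The part of cell makeup in the values of the respiratory chain genes was not tested.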

How the data were processed

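The deposited values are raw counts, whole reads per gene without normalization, which the authors made with TopHat2 2.0.14 on mm10 and HTSeq 0.6.1 on Ensembl release 81. Neither library kit nor strand setting nor the treatment of reads with several matches is given in the sources used here. Symbols, types and positions came from GENCODE M21 (GRCm38), to which 32247 of 32506 rows matched. Levels per kilobase used the length of the principal transcript.

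The whole table was fitted in R 4.3.3 with edgeR 4.0.16 (filterByExpr, TMM, robust quasi-likelihood F test) with p adjusted by Benjamini and Hochberg over 16974 genes, at the study's limit of 0.01. The authors used DESeq2. Mean deviations used log2 of CPM plus 0.5. The test code was tested on simulated data. The depth of 29333590 to 46003999 counts per library bounds the precision of low genes. Alternatives were other scalings and filters, DESeq2 1.42.0, limma voom 3.58.1, the replicate number as a block, a limit of 0.05 and each mouse left out. P-values weigh the difference between the genotypes against the spread between mice.

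The members and lists were chosen with earlier results of these data known. Named members were any past the test, those with the smallest unadjusted p and the highest level per complex, the tissue forms with their partners, and all Sdh and mt- genes. Genes named outside this rule were chosen after their values were seen.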

Additional observations from a re-analysis of the deposited data

Results flagged for a closer look

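Of 84 groups of 5 mice examined for the named members and the library shares, 9 held a highest value far from the rest. For a single group chance gives this about 1 time in 20. The members vary together between mice, so the groups are not separate observations and the 9 cannot be compared with that rate. Of the 9 values, 5 lie with WT replicate 5, the deepest library. It was the highest WT mouse for mt-Co1 (15154 CPM), mt-Cytb (13016 CPM) and mt-Nd4 (5688 CPM), and its share of counts on mitochondrial protein-coding genes was 5.84%. WT replicate 2 was the highest WT mouse for Atp5g3 (353 CPM), Ndufb10 (149 CPM) and Sdhc (140 CPM, with the next at 118 CPM). The fifth is Cox8b, at 3.86 CPM in WT replicate 5, the WT library with the most muscle marker RNA. mt-Atp6 was highest among SOD1G86R mice in replicate 3, at 2.87 CPM, a gene whose counts are uncertain because of its nuclear copy.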

How the results depend on the processing

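The 19 alternatives were the other scalings, filter, tools and limit, the replicate block and each mouse left out. No member was called in 17 of them, and 1 was called, Ndufab1, by DESeq2 with a normal prior (log2 fold change -0.24) and at a limit of 0.05 (-0.25). Over all genes the calls moved more, from 147 higher and 43 lower to 714 and 107 by DESeq2, 29 and 30 by limma voom, 654 and 127 at the limit of 0.05, and 782 and 86 without SOD1G86R replicate 4. Fits without any other single mouse called 12 to 32 genes higher and 19 to 29 lower. When single mice were left out, members called were 0 to 0, the median of the nuclear members -0.20 to -0.066 and that of the mt- members -0.12 to -0.0081. Across the other alternatives the nuclear median was -0.13 to -0.11. In every fit 79 members kept a negative and 3 a positive sign. Depth limits Cox7b2, Cox4i2 and the mt- genes with nuclear copies.

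Replicate numbers did not pair the mice: the correlation of deviations between same-numbered mice was 0.10, 0.29, -0.14, 0.11 and -0.37, and none correlated best with its own number. With the replicate block, edgeR called 0 members and 109 genes higher and 31 lower, with a nuclear median of -0.13 and an mt- median of -0.090.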

Other observations

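Ubiquinone, the carrier between complexes I, II and III, is made by a pathway of which 9 genes were tested, 8 with a negative log2 fold change and 1, Pdss1, with a positive one (0.05), and a median of -0.07. For 3 of the 14 carrier genes all SOD1G86R mice lay below all WT mice (21.4%, against 1.84% of all genes), and none passed the adjusted test. Coq2, which joins the ring and the tail of ubiquinone, was at 34.1 to 36.3 CPM in WT and 30.6 to 33.1 CPM in SOD1G86R mice, a log2 fold change of -0.14 (SE 0.05, adjusted p 0.146 by edgeR). Coq4, needed for ubiquinone synthesis, was at 12.3 to 13.2 CPM and 9.12 to 11.98 CPM (log2 fold change -0.24, edgeR adjusted p 0.106). Pdss2, a subunit of the enzyme that builds the tail, was at 12.01 to 13.7 CPM and 10.9 to 11.9 CPM (log2 fold change -0.15, edgeR adjusted p 0.265). These genes were named after their values were seen.

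Also named after their values were seen are the ribosomal RNAs of the mitochondrial genome. mt-Rnr2 was at 4274, 4560, 4098, 4195 and 4467 CPM in WT and at 3010, 3574, 3948, 3439 and 2713 CPM in SOD1G86R replicates 1 to 5, and the groups did not overlap. Its log2 fold change was -0.37 (SE 0.09, adjusted p 0.0304 by edgeR), and that of mt-Rnr1 was -0.31 (SE 0.10, adjusted p 0.0865 by edgeR), with 2296 to 2713 CPM in WT and 1672 to 2487 CPM in SOD1G86R mice. Whether the selection of RNA for sequencing bears on these values was not tested. Hk2, a hexokinase, had the smallest p of the glycolytic genes, with 4.31 to 6.53 CPM in WT and 5.38 to 17.4 CPM in SOD1G86R mice, a log2 fold change of 1.18 (SE 0.26, adjusted p 0.0269 by edgeR). Its lowest SOD1G86R mouse was replicate 4, the library with the lowest summed level of microglial markers among SOD1G86R mice. That library also stood apart by its counts of Scn10a and Avil, and the part of cell makeup in the value of Hk2 was not tested.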
